A study of Mus musculus with 24 samples.

Results

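The genes described here are 9 of the 24454 in the deposited count table: Parp9, Dtx3l, Parp10, Parp11, Parp12, Parp14, Herc6, Uba7 and Ube2l6. They were chosen by symbol, as interferon-induced members of the PARP family and enzymes of the ISG15 pathway. The choice was made with results of the GM against CTRL comparison at 6 h in view, where Parp9 and Herc6 had already been singled out, so the values of that comparison are a description and no test is given for them. All 9 passed the filter on low counts that left 16317 genes for testing.

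Organs of Corti (OCs), the sensory epithelia of the cochlea with their surrounding tissue, came from C57BL/6N mouse pups of both sexes, 5 days old, and were cultured for 24 h before treatment. For 6 or 24 h they then received drug-free medium (CTRL), 50 µM gentamicin (GM), 10 µM pioglitazone (PIO) or both (PIO + GM). Gentamicin is an aminoglycoside toxic to hair cells (HCs), and pioglitazone activates the nuclear receptor PPAR-γ. RNA from 6 pooled OCs gave each library, and 3 libraries for each of the 8 groups gave 24 in all. No source says that the libraries of a group came from separate litters, so p-values measure the spread between pools of explants.

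Interferons act through JAK kinases and transcription factors, STAT2 and IRF9 among them, which bind a DNA element known as the interferon-stimulated response element (ISRE). Among the genes they switch on are ISG15, a ubiquitin-like protein, and the enzymes that attach it to other proteins, a process called ISGylation. The same response raises a group of ADP-ribosyltransferases of the PARP family, which add ADP-ribose to proteins and, for several members, restrict viruses or tune the interferon response itself.

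The 9 genes lie on 5 chromosomes in build GRCm38.p6, the RefSeq annotation used here, which is the mm10 assembly named in the submitters' processing notes. Parp9, Dtx3l and Parp14 are neighbours on chromosome 16, at chr16:35938470-35972621, chr16:35926515-35939027 and chr16:35831892-35871518. Parp9 and Dtx3l run in opposite directions from starts that lie so close that the gene bodies share 558 bases. Libraries were made with a stranded kit, but whether the counting used strand is not stated, so reads of these 558 bases may be counted for either gene. Parp11 is at chr6:127446830-127514233, Parp12 at chr6:39086412-39118349 and Herc6 at chr6:57580992-57665136. Parp10 is at chr15:76232995-76243440, Uba7 at chr9:107975567-107984056 and Ube2l6 at chr2:84798828-84810003.

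Since the genes varied together across libraries, the stretch before their starts was searched for the binding elements of the interferon pathway. The ISRE core was searched as GAAA followed after any 2 bases by GAAA, and the STAT element (GAS) as TTCNNNGAA, on both strands, in RefSeq windows of 250 bases before to 50 after each start. Windows were found for 6 of the 9 genes (7 windows), and Parp9, Parp10 and Parp14 had no entry. An ISRE core was found before Parp11 and before none of Dtx3l, Parp12, Herc6, Uba7 and Ube2l6, and 3.44% of all 32851 windows hold one. A GAS element was also found before Parp11 alone of the 6, and 8.3% of all windows hold one. Parp11 has a further window, chr6:127453377-127453676, which held 0 of either. Isg15 itself had 3 overlapping ISRE cores. The 250 bases before the starts of Isg15, Parp11 and Herc6 are shown because Isg15 holds the element in repeated form, Parp11 holds it and Herc6 lacks it, and these had the lowest and the highest log2 fold change of the 9 in GM against CTRL at 6 h, the comparison in view when the genes were chosen. Capitals mark the ISRE core or the run of overlapping cores.
Isg15 (minus strand, chr4:156200819-156201068): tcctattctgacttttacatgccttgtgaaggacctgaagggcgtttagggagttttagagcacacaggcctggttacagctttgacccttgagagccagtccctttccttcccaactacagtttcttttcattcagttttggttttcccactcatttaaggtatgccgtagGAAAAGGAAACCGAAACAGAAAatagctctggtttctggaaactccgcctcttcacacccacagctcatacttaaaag
Parp11 (plus strand, chr6:127446590-127446839): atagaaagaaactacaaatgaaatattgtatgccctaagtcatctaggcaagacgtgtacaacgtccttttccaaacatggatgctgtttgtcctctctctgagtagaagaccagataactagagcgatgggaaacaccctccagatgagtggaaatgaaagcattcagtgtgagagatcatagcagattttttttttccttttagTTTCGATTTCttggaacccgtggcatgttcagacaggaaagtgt
Herc6 (plus strand, chr6:57580742-57580991): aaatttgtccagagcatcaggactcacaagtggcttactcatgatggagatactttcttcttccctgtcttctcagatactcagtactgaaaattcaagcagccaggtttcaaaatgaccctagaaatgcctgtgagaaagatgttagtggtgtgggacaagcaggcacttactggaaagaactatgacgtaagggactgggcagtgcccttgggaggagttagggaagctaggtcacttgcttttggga
In Isg15 the cores begin 78, 72 and 66 bases before the start, and in Parp11 the core TTTCGATTTC begins 44 bases before it. The GAS match of Parp11, TTCTTGGAA, begins 37 bases before the start and overlaps the ISRE core. A match in these letters is no evidence of binding, and the absence of one says nothing about sites elsewhere.

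The library totals ranged from 7211357 to 15548856 counts (median 12538495), at which 3 counts are worth between 0.193 and 0.416 CPM (counts per 1000000 counts of the library). The lowest total was that of PIO + GM library 3 at 6 h, which also had the highest share of counts on olfactory and vomeronasal receptor genes, 275 CPM against 38.0 CPM in the lowest library. PIO + GM library 1 at 6 h stood apart for the genes described here: it was the highest of its group for all 9 and the highest of all 24 libraries for 6 of them. All 10 hair cell and all 6 supporting cell marker genes were measured above the filter. Of the markers of other cells, all 10 for macrophages passed the filter, with summed levels of 55.5 to 143 CPM over the libraries at 6 h and 69.2 to 211 CPM at 24 h, while 2 of 6 for lymphocytes and 1 of 2 for plasmacytoid dendritic cells did. In bulk RNA a smaller number of cells of a type and less RNA per cell cannot be told apart.

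Levels per length were compared first, as RPKM (CPM per kilobase of the deposited gene length). Parp12, a PARP linked to the block of viral translation, had the highest mean RPKM of the 9 genes in CTRL at 6 h (8.21 ± 1.79, SD, n = 3), and Herc6 the lowest (1.08 ± 0.51). Parp9, Parp14, Dtx3l and Parp11 followed Parp12 with mean RPKM of 5.84, 5.43, 5.35 and 4.84, and the libraries of each overlapped those of the next. Below them the libraries of Ube2l6 (3.52 RPKM) overlapped neither those of Parp11 nor those of Uba7 (2.14 RPKM). Uba7, Parp10 (1.48 RPKM) and Herc6 overlapped in turn. In PIO at 24 h the order was different at the top and near the bottom: Parp11 came first with 6.68 RPKM and Parp14 last but for Herc6, with 2.12 RPKM against 0.97 RPKM. Both places rest on overlapping libraries, of Parp11 with Parp12 (6.18 RPKM) and of Parp14 with Parp10 (2.22 RPKM).

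**Figure D1:**
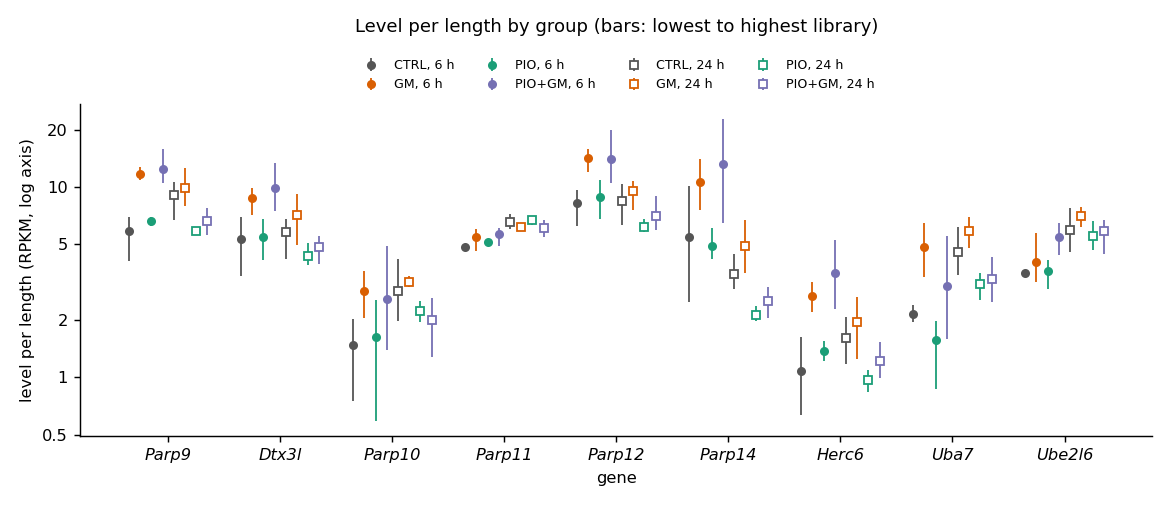
Mean RPKM (log axis) of each gene in the 8 groups, with bars from the lowest to the highest of 3 libraries. Filled circles are 6 h and open squares 24 h. Parp14 spans the widest range, from 2.12 RPKM in PIO at 24 h to 13.2 RPKM in PIO + GM at 6 h, and Parp11 the narrowest, from 4.84 RPKM to 6.68 RPKM.

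The first question was what gentamicin did at 6 h. Every one of the 9 genes had a higher fitted level in GM than in CTRL, with log2 fold changes from 0.17 (Parp11) to 1.32 (Herc6) and a median of 0.94, while the median over all 16317 genes was 0.00. The libraries did not overlap for 6 genes, all higher in GM, as were 3.14% of all genes tested. No gene of the 16317 passed the adjusted threshold in this comparison by edgeR or DESeq2, and 243 had an unadjusted p under 0.05 by edgeR.

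Among the ADP-ribosyltransferases, Parp9, which pairs with the ubiquitin ligase Dtx3l in one complex, measured 23.2, 24.7 and 14.5 CPM in the 3 CTRL libraries and 38.5, 41.5 and 45.4 CPM in the 3 GM libraries at 6 h. The groups did not overlap, and the log2 fold change was 1.01 (SE 0.22). Dtx3l measured 29.5, 35.9 and 17.7 CPM in CTRL and 37.1, 47.9 and 50.9 CPM in GM. Here the highest CTRL library, at 35.9 CPM, came close to the lowest GM library, and the log2 fold change was 0.71 (SE 0.28). Parp12 measured 28.3, 31.1 and 20.1 CPM in CTRL and 38.7, 48.4 and 51.0 CPM in GM, again without overlap (log2 fold change 0.80, SE 0.25).

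Parp14, the largest of these proteins and one with macrodomains that bind ADP-ribose, had widely spread libraries. Its CTRL libraries at 6 h were at 27.3, 72.9 and 18.0 CPM and its GM libraries at 54.8, 102 and 73.0 CPM, so CTRL library 2 lay inside the GM range. The log2 fold change was 0.96 (SE 0.43), and 1.76 without that library. Parp10, a mono-ADP-ribosyltransferase, was less abundant, with 5.63, 6.88 and 2.56 CPM in CTRL and 6.98, 9.60 and 12.3 CPM in GM. The groups did not overlap but nearly met, and the log2 fold change was 0.94 (SE 0.49). Parp11, also a mono-ADP-ribosyltransferase, measured 17.9, 18.3 and 18.0 CPM in CTRL and 17.2, 22.4 and 21.3 CPM in GM. GM library 1 fell below all CTRL libraries (log2 fold change 0.17, SE 0.12).

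Of the enzymes of the ISG15 pathway among the 9 genes, Herc6, the ligase that performs the last step of ISGylation in the mouse, showed the steepest difference. It measured 5.07, 8.65 and 3.35 CPM in CTRL and 11.6, 14.2 and 16.7 CPM in GM (log2 fold change 1.32, SE 0.34), with no overlap. Uba7, the activating enzyme of ISG15, measured 7.56, 6.62 and 6.15 CPM in CTRL and 10.6, 14.8 and 20.6 CPM in GM, also with no overlap (log2 fold change 1.18, SE 0.39). Ube2l6, the conjugating enzyme between them, differed from both: it measured 4.91, 4.85 and 4.87 CPM in CTRL and 4.54, 4.38 and 7.96 CPM in GM. GM library 3 alone was high, and without it the log2 fold change of 0.21 (SE 0.26) became -0.12.

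**Figure D2:**
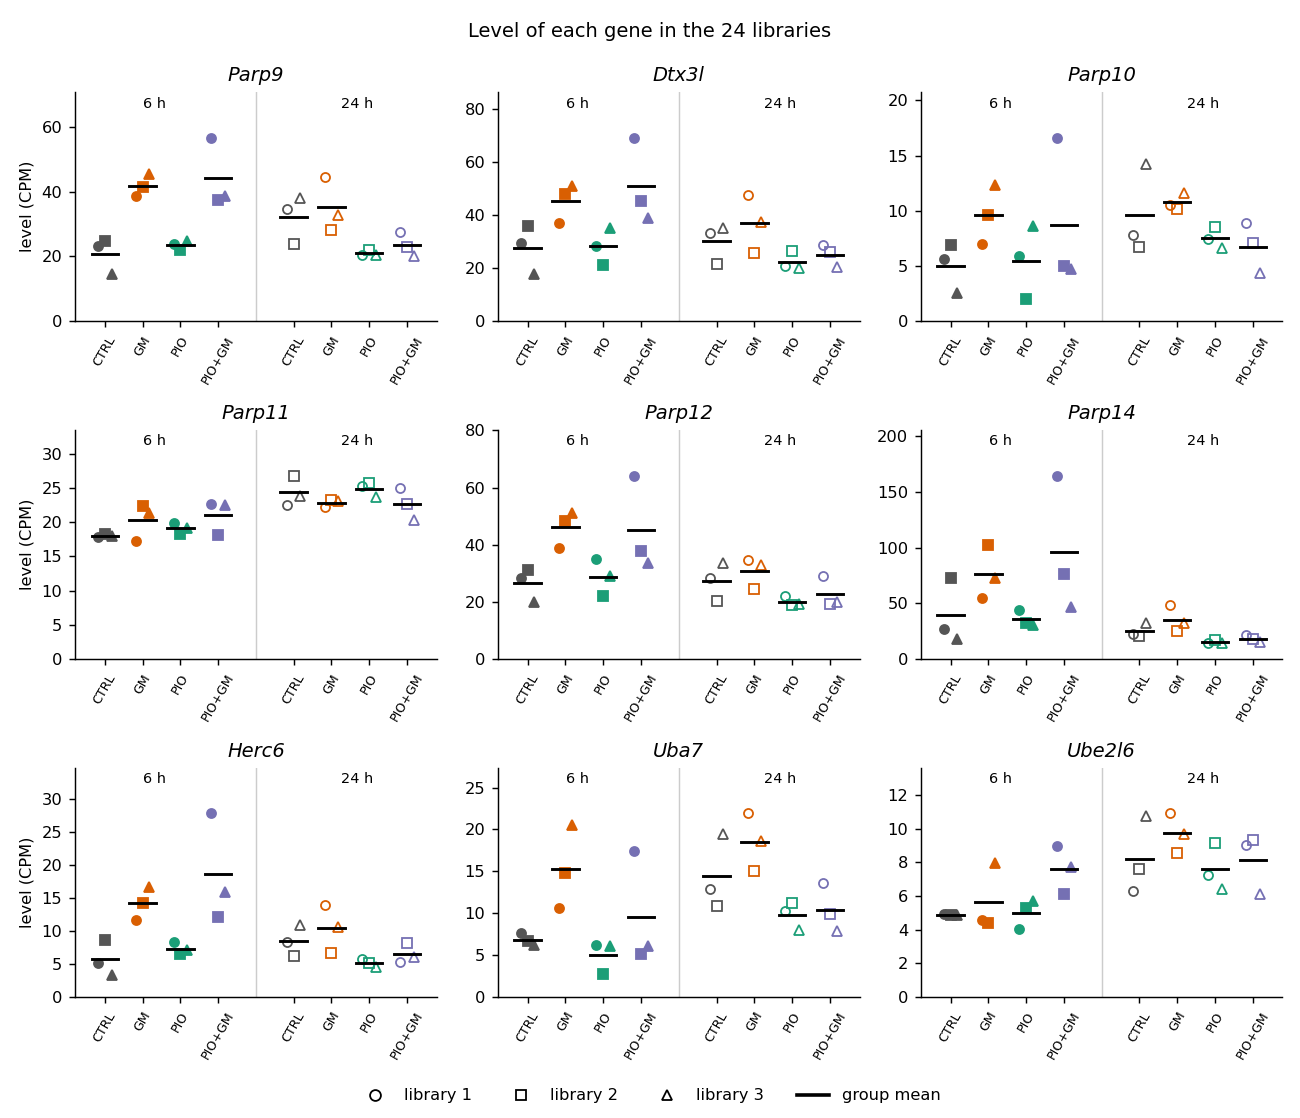
Level in CPM of each gene in the 24 libraries, by treatment, with 6 h on the left and 24 h on the right of each panel. Circles, squares and triangles are libraries 1, 2 and 3 of a group, and bars are group means. Library 1 of PIO + GM at 6 h is the highest of all 24 for 6 genes, with 164 CPM for Parp14.

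The other genes of the ISG15 system and of interferon signalling, taken from lists, were examined for the same libraries. Isg15 measured 3.38, 5.38 and 1.20 CPM in CTRL and 9.51, 14.3 and 12.7 CPM in GM at 6 h. Usp18, the protease that removes ISG15 from proteins, measured 4.58, 10.8 and 1.68 CPM in CTRL and 17.2, 27.7 and 20.0 CPM in GM. The GM libraries were higher than all CTRL libraries for both genes, with log2 fold changes of 1.88 (SE 0.57) and 1.94 (SE 0.68). The list also holds ligases and ligase relatives (Trim25, Arih1, Herc1, Herc2, Herc3 and Herc4), and the median of its 8 genes was 0.14. The median of the 11 other PARP family genes was 0.04. These medians do not describe every gene. Trim25 was also higher in all GM libraries (lowest 43.95 CPM) than in all CTRL libraries (highest 39.57 CPM). So was Zc3hav1 of the PARP family list (65.02 CPM against 61.2 CPM). Apart from these, Isg15 and Usp18, the libraries of both lists overlapped. Of the signalling genes, Irf7 had a log2 fold change of 1.92 (SE 0.62), Stat2 of 0.85 (SE 0.33) and Irf9 of 0.46 (SE 0.22), while the median of 11 signalling genes was 0.13, and Jak1, Jak2 and Ifnar1 were below 0.

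The second question was what pioglitazone alone did at 6 h. The comparison with CTRL uses the CTRL libraries that also served in choosing the genes, so it is not independent of the choice. By edgeR, 0 of the 9 genes passed the threshold against CTRL, 0 had an unadjusted p under 0.05 (15.2% of all genes did) and DESeq2 called 0, while 0.337% of all genes passed. Log2 fold changes ran from -0.43 (Uba7) to 0.35 (Herc6) with a median of 0.09. The libraries of CTRL and PIO overlapped for 8 of the genes. Parp11 was the exception, with 19.9, 18.3 and 19.2 CPM in PIO, all above CTRL as for 8.68% of all genes, and its log2 fold change was only 0.09 (SE 0.12).

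PIO and GM were also set against each other at 6 h. These values share the GM libraries with the comparison that chose the genes, so they are not independent of it. All 9 log2 fold changes were below 0, with a median of -0.79, and for 6 genes the PIO libraries were all below the GM libraries, as held for 8.71% of all genes. That of Ube2l6 was -0.17 and became 0.16 without GM library 3. None of the 9 genes passed the threshold by edgeR, where 6 had an unadjusted p under 0.05 (15.7% of all genes did), and 0.129% of all genes passed. DESeq2 called 2 of them, Parp9 and Uba7, and 2.02% of all genes. Both also passed by edgeR without PIO + GM library 1 of 6 h (adjusted p = 0.0483 and 0.0203), where 192 of 16613 genes passed. Uba7 measured 6.23, 2.75 and 6.01 CPM in PIO, a log2 fold change against GM of -1.61 (SE 0.40, edgeR adjusted p = 0.0964). Parp9 measured 24.0, 22.1 and 24.8 CPM in PIO (log2 fold change -0.82, SE 0.22, edgeR adjusted p = 0.103).

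With both drugs at 6 h, the levels were set against CTRL and against GM. The comparison of PIO + GM with CTRL uses the CTRL libraries that also served in choosing the genes. In it 2 of the 9 genes rose past the threshold by edgeR, Parp9 and Herc6, while 2.64% of all genes passed and 1.6% rose. Parp9 measured 56.5, 37.5 and 38.5 CPM in PIO + GM, all above the CTRL libraries, with a log2 fold change of 1.09 (SE 0.22, edgeR adjusted p = 0.0181). Herc6 measured 27.8, 12.1 and 15.8 CPM, also all above CTRL, with a log2 fold change of 1.71 (SE 0.35, edgeR adjusted p = 0.0191). Both calls were lost without CTRL library 1 (adjusted p = 0.0584 for Parp9 and 0.0935 for Herc6, edgeR) or without CTRL library 3 (0.074 and 0.0773), and in a fit of the 12 libraries of 6 h alone (0.162 and 0.166). The call for Herc6 was also lost without PIO + GM library 3 (0.0528). Without PIO + GM library 1, the high one, both calls stood, with log2 fold changes of 0.87 for Parp9 and 1.29 for Herc6 (adjusted p = 0.0134 and 0.0161, edgeR), but 21.5% of all genes passed in that fit.

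The other 7 genes had log2 fold changes against CTRL from 0.22 (Parp11) to 1.29 (Parp14) and did not pass the threshold by edgeR, although DESeq2 called 5 in all by adding Dtx3l, Parp12 and Parp14, and called 7.89% of all genes. Dtx3l measured 69.0, 45.2 and 38.9 CPM in PIO + GM and Parp12 measured 64.1, 38.0 and 33.6 CPM, each above all CTRL libraries, as held for 5 of the 9 genes and 9.65% of all genes. Parp14 measured 164, 76.6 and 46.9 CPM, with library 3 inside the CTRL range. The log2 fold change of Parp14 depended on single libraries: it was 2.08 without CTRL library 2 (adjusted p = 0.0184 by edgeR, where 2.36% of all genes passed) and 0.65 without PIO + GM library 1 (0.274). Parp12 went from 0.78 to 0.43 without PIO + GM library 1. Parp10 and Uba7 owed their positive values to PIO + GM library 1, at 16.6 and 17.5 CPM against 4.98 and 4.73 CPM for Parp10 and 5.06 and 6.08 CPM for Uba7 in the other libraries. Without library 1 their log2 fold changes against CTRL went from 0.82 to -0.05 and from 0.50 to -0.29. Ube2l6 measured 8.98, 6.10 and 7.70 CPM, above all CTRL libraries (log2 fold change 0.64, SE 0.26, edgeR adjusted p = 0.151). Uba6, an activating enzyme of ubiquitin from the pathway lists, rose as well (log2 fold change 0.68, SE 0.17, edgeR adjusted p = 0.0433), a call that stood in 5 of 24 fits without 1 library.

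The comparison of PIO + GM with GM at 6 h shares the GM libraries that served in choosing the genes. In it 6 log2 fold changes were above 0 and 3 below, from -0.68 (Uba7) to 0.42 (Ube2l6), median 0.08. Without PIO + GM library 1 the signs were different, with 1 above 0 (Ube2l6) and 8 below and a median of -0.15. By edgeR 0 passed the threshold and 0 had an unadjusted p under 0.05 (25.0% of all genes did), DESeq2 called 0, and 1.32% of all genes passed. The libraries of PIO + GM and GM overlapped for all 9. Without that library, Uba7 had a log2 fold change of -1.48 (SE 0.36, edgeR adjusted p = 0.0103), in a fit that called 24.4% of all genes. Parp3, another PARP, fell (log2 fold change -1.20, SE 0.30, edgeR adjusted p = 0.0495) and was the 1 gene of the 11 other PARP family genes to pass, while Uba6 rose (0.72, SE 0.17, adjusted p = 0.0447). These calls stood in 3 and 4 of 24 fits without 1 library and were lost in a fit of the libraries of 6 h alone (adjusted p = 0.319 for both). The sparse plasmacytoid dendritic cell markers did not overlap, with sums of 1.19 to 1.53 CPM in PIO + GM and 0.0841 to 1.02 CPM in GM, and their part was not tested.

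**Figure D3:**
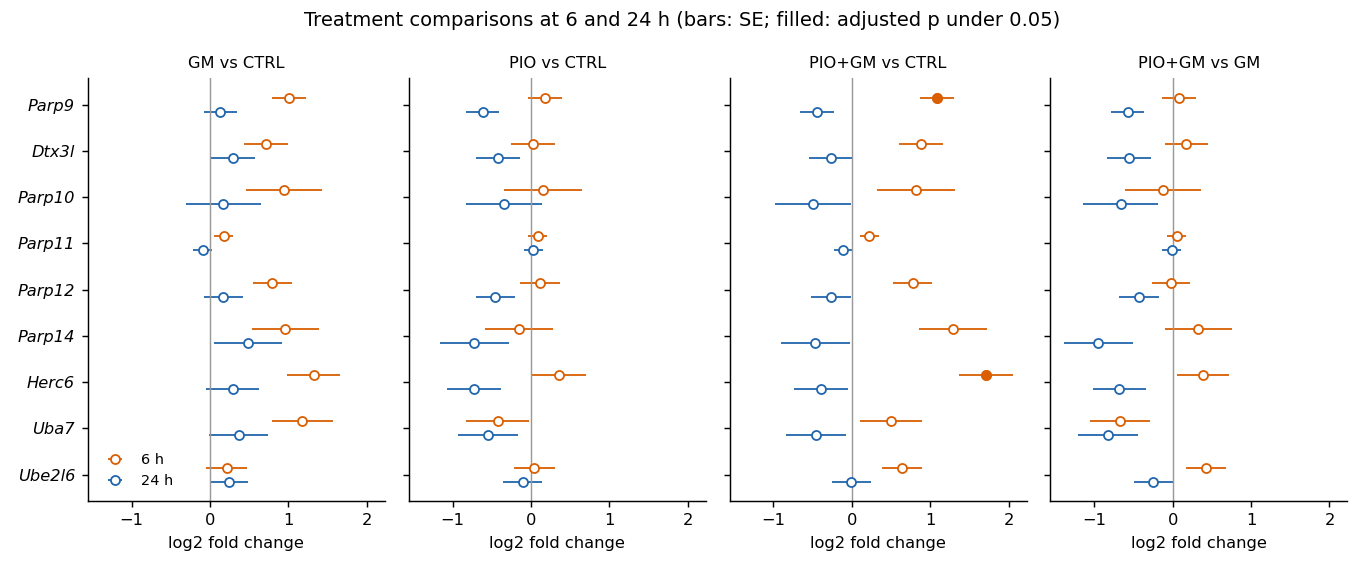
Log2 fold change of each gene in 4 treatment comparisons, at 6 h (orange) and 24 h (blue), with bars of 1 SE. Filled points have an adjusted p under 0.05 by edgeR, which holds for Parp9 and Herc6 in PIO + GM against CTRL at 6 h. At 24 h all 9 values of PIO + GM against GM lie below 0, that of Parp11 only just (-0.01).

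At 24 h the same questions were asked of libraries outside the comparison in view when the genes were chosen. Earlier results of these data were known at the choice, so these libraries are not fully independent of it. GM against CTRL called 0 of the 9 by edgeR and 0 by DESeq2, 0 had an unadjusted p under 0.05 by edgeR (1.67% of all genes did), and 0.0123% of all genes passed. Log2 fold changes ran from -0.09 (Parp11) to 0.48 (Parp14), with a median of 0.24, and the libraries overlapped for all 9. Herc6 measured 8.35, 6.21 and 10.9 CPM in CTRL and 13.9, 6.62 and 10.6 CPM in GM. Parp9 measured 34.5, 24.0 and 37.9 CPM in CTRL and 44.7, 28.2 and 32.7 CPM in GM. Library 2 was the lowest of its group for 7 of the 9 genes in CTRL and for 8 in GM. The fit had no term for the library number, and with such a term 0 of the 9 passed as well. The summed hair cell markers were lower in GM, at 221 to 286 CPM against 300.0 to 456 CPM in CTRL, but the list went both ways: 6 of the 10 had a lower mean in GM, Otof, Slc26a5 and Ocm among them, and 4 a higher one (Pou4f3, Gfi1, Slc17a8 and Espn).

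PIO against CTRL at 24 h had 8 log2 fold changes below 0, with a median of -0.45 against -0.01 over all genes. None passed the threshold by edgeR or DESeq2, 2 (Parp9 and Herc6) had an unadjusted p under 0.05 by edgeR (9.93% of all genes did), and 0.153% of all genes passed. For Parp9, Parp14 and Herc6 all PIO libraries were below all CTRL libraries, as held for 10.6% of all genes. Parp9 measured 20.6, 22.0 and 20.3 CPM in PIO, a narrow range below the lowest CTRL library (log2 fold change -0.62, SE 0.21, edgeR adjusted p = 0.304). Herc6 measured 5.78, 5.14 and 4.44 CPM (log2 fold change -0.72, SE 0.34, adjusted p = 0.495). Parp14 measured 22.8, 21.1 and 32.3 CPM in CTRL and 14.3, 17.2 and 14.7 CPM in PIO (log2 fold change -0.72, SE 0.44, adjusted p = 0.625).

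PIO + GM against GM at 24 h had all 9 log2 fold changes below 0, from -0.95 (Parp14) to -0.01 (Parp11), with a median of -0.58 against 0.00 over all genes. That of Parp11 was not below 0 in every fit, and was 0.06 without PIO + GM library 3. Again none of the 9 genes passed the threshold by edgeR or DESeq2, 3 (Parp9, Parp14 and Uba7) had an unadjusted p under 0.05 by edgeR (7.47% of all genes did), and 0.11% of all genes passed. For these and for Parp10 the PIO + GM libraries were all below the GM libraries (4 of 9, against 8.57% of all genes). Parp14 measured 48.5, 25.5 and 32.2 CPM in GM and 21.6, 18.4 and 14.9 CPM in PIO + GM (log2 fold change -0.95, SE 0.44, edgeR adjusted p = 0.655). Uba7 measured 21.9, 15.1 and 18.6 CPM in GM and 13.6, 9.85 and 7.85 CPM in PIO + GM (log2 fold change -0.83, SE 0.38, adjusted p = 0.644). Parp9 measured 27.7, 23.0 and 20.0 CPM in PIO + GM (log2 fold change -0.58, SE 0.21, adjusted p = 0.477). Parp10 measured 10.6, 10.1 and 11.6 CPM in GM and 8.87, 7.12 and 4.33 CPM in PIO + GM. Isg15 lay in the same direction, with 7.36, 3.11 and 4.74 CPM in GM and 2.58, 1.29 and 0.74 CPM in PIO + GM (log2 fold change -1.69, SE 0.60, adjusted p = 0.456). The summed macrophage markers overlapped, at 105 to 211 CPM in GM and 69.2 to 195 CPM in PIO + GM.

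PIO alone against GM at 24 h, which shares those GM libraries, gave 8 log2 fold changes below 0 and a median of -0.71. By edgeR 0 of the 9 passed, 6 had an unadjusted p under 0.05 (10.2% of all genes did), DESeq2 called 0, and 0.454% of all genes passed. The PIO libraries were all below the GM libraries for 6 genes, against 10.1% of all genes, with log2 fold changes from -1.20 (Parp14, SE 0.44) to -0.51 (Parp10, SE 0.48). Parp11 went the other way, with 22.2, 23.2 and 23.1 CPM in GM and 25.3, 25.8 and 23.6 CPM in PIO, all higher, as held for 11.4% of all genes, but by only 0.12 on the log2 scale (SE 0.12). The sparse lymphocyte markers did not overlap in this comparison, with sums of 0.429 to 0.835 CPM in PIO and 0.946 to 2.34 CPM in GM, and their part was not tested. PIO + GM against CTRL at 24 h, which shares the PIO + GM libraries, had 9 log2 fold changes below 0 with a median of -0.39, and all 9 genes overlapped. That of Ube2l6 was only -0.006 and was above 0 in several other fits, DESeq2 among them (0.011). None of the 9 genes passed by edgeR or DESeq2, 0 had an unadjusted p under 0.05 by edgeR (9.05% of all genes did), and 0.478% of all genes passed. The summed hair cell markers were lower here too, at 148 to 262 CPM in PIO + GM against 300.0 to 456 CPM in CTRL, with 9 of the 10 means lower, and their part was not tested.

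Whether a treatment effect differed between 6 and 24 h was examined as an interaction in the same fit. For the GM effect, which carries the 6 h values that chose the genes, the values are a description: 8 of 9 were below 0, with a median of -0.63, among them Parp9 (-0.88, SE 0.30) and Herc6 (-1.03, SE 0.48), and 0.0% of all genes passed. For the PIO effect, which shares the CTRL libraries, 0 of the 9 genes passed by edgeR and 0 by DESeq2, 2 (Parp9 and Herc6) had an unadjusted p under 0.05 by edgeR, and all 9 values were below 0, with a median of -0.50 (0.0% of all genes passed, 4.38% had such a p). The values of Parp11, Uba7 and Ube2l6 turned positive in 1 or more fits without 1 library. For the effect of PIO in the presence of GM, which shares the GM libraries of 6 h that served in choosing the genes, 0 passed by either tool and 3 (Parp9, Parp14 and Herc6) had an unadjusted p under 0.05 by edgeR, that of Parp14 just under it, while 0.0% of all genes passed and 4.06% had such a p. Its values ran from -1.28 (Parp14, SE 0.61) to -0.06 (Parp11), with a median of -0.66. Without PIO + GM library 1 of 6 h the median was -0.43, with Parp14 at -0.63, Herc6 at -0.65 and Parp9 at -0.43, while Parp10 and Uba7 were above 0, at 0.33 and 0.65.

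The change from 6 to 24 h was then followed within each treatment. With both drugs 5 of the 9 genes fell, Parp9, Dtx3l, Parp12, Parp14 and Herc6, and 0 rose. Of all genes 34.6% passed, and 17.0% fell. Parp14 fell from 164, 76.6 and 46.9 CPM at 6 h to 21.6, 18.4 and 14.9 CPM at 24 h (log2 fold change -2.39, SE 0.45, edgeR adjusted p = 0.000633). Herc6 fell from 27.8, 12.1 and 15.8 CPM to 5.23, 8.11 and 6.05 CPM (log2 fold change -1.53, SE 0.34, adjusted p = 0.00219). In both genes every library at 24 h was below every library at 6 h.

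Dtx3l fell in PIO + GM from 69.0, 45.2 and 38.9 CPM to 28.5, 26.1 and 20.5 CPM (log2 fold change -1.03, SE 0.28, edgeR adjusted p = 0.00854). Parp9 fell from 56.5, 37.5 and 38.5 CPM to 27.7, 23.0 and 20.0 CPM (log2 fold change -0.91, SE 0.22, adjusted p = 0.00327). Parp12 fell from 64.1, 38.0 and 33.6 CPM to 29.1, 19.2 and 20.0 CPM (log2 fold change -0.99, SE 0.25, adjusted p = 0.00529). None of the 3 overlapped between times, and 20.7% of all genes were lower in every library at 24 h. The falls of Parp9, Parp12, Parp14 and Herc6 passed the threshold in all 24 fits that left out 1 library. Without PIO + GM library 1 of 6 h, Dtx3l no longer passed (adjusted p = 0.0547) and Parp14 had a log2 fold change of -1.75 (adjusted p = 0.00453).

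Uba7, Ube2l6, Parp10 and Parp11 did not fall past the threshold in PIO + GM. Uba7 measured 17.5, 5.06 and 6.08 CPM at 6 h and 13.6, 9.85 and 7.85 CPM at 24 h. Its value depended on library 1 of 6 h: the log2 fold change was 0.12 with it and 0.92 without it (adjusted p = 0.0474 by edgeR, in a fit that called 36.6% of all genes). Ube2l6 measured 9.07, 9.32 and 6.13 CPM at 24 h and overlapped its 6 h libraries. Beside these genes, the ISG15 system list had 5 of 8 genes fall, among them Isg15 (log2 fold change -2.97, SE 0.61, adjusted p = 0.00112) and Usp18 (-2.58, SE 0.70, adjusted p = 0.00814), with Arih1, Herc2 and Herc4 falling by 0.29 to 0.47. Among the signalling genes Stat2, Irf9, Jak1 and Jak2 fell, and Tyk2 rose by 0.86. Of the 11 other PARP family genes Zc3hav1, the zinc-finger antiviral protein, fell by 1.72, Parp4 and Parp8 also fell, and Parp16 rose. Over the same interval the summed hair cell markers went from 265 to 352 CPM at 6 h to 148 to 262 CPM at 24 h, with 5 of the 10 means lower and 5 higher, the summed neuronal markers from 49.5 to 199 CPM to 30.8 to 42.4 CPM, and the part of either in these falls was not tested. The summed macrophage markers overlapped, at 62.0 to 96.0 CPM and 69.2 to 195 CPM. The sparse markers of lymphocytes and plasmacytoid dendritic cells did not overlap, with sums of 2.12 to 4.73 CPM at 6 h against 0.662 to 2.04 CPM at 24 h and of 1.19 to 1.53 CPM against 0.245 to 0.728 CPM, and their part was not tested.

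In PIO alone, Parp14 fell from 44.3, 32.0 and 30.2 CPM at 6 h to 14.3, 17.2 and 14.7 CPM at 24 h (log2 fold change -1.20, SE 0.44, edgeR adjusted p = 0.0469), and Parp11 rose from 19.9, 18.3 and 19.2 CPM to 25.3, 25.8 and 23.6 CPM (0.38, SE 0.12, adjusted p = 0.0249). These were 2 of 9 genes, against 29.0% of all genes (13.2% rose and 15.8% fell). The call for Parp14 was narrow and stood in 7 of 24 fits without 1 library, and that of Parp11 was lost without PIO library 2 of 6 h, or library 1 or 2 of 24 h (adjusted p = 0.066 to 0.0801). Olfactory and vomeronasal receptor genes had 89.9 to 207 CPM in PIO at 6 h and 39.3 to 75.9 CPM at 24 h, and both calls were lost with this share as a covariate (adjusted p = 0.173 for Parp14 and 0.167 for Parp11). The summed lymphocyte markers (1.30 to 4.13 CPM against 0.429 to 0.835 CPM) and plasmacytoid dendritic cell markers (0.507 to 1.80 CPM against 0.0715 to 0.195 CPM) were also lower at 24 h, and their part was not tested. DESeq2 added Uba7 (adjusted p = 0.0497) and called 32.9% of all genes. By edgeR, Uba7 (log2 fold change 0.96, SE 0.40, adjusted p = 0.074) and Ube2l6 (0.60, SE 0.25, adjusted p = 0.0799) were higher in every library at 24 h than at 6 h without passing the threshold, whereas Parp9, Parp12 and Herc6 were lower in every library without passing it. Of all genes, 20.5% were higher and 20.7% lower in every library. Isg15 fell in PIO by 1.83 (SE 0.64, adjusted p = 0.0377).

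In GM, Ube2l6 rose from 4.54, 4.38 and 7.96 CPM to 10.9, 8.58 and 9.68 CPM (log2 fold change 0.78, SE 0.25, edgeR adjusted p = 0.0291) and was the 1 gene of 9 to pass. The call was lost without GM library 1 or 2 of 6 h or 1 or 3 of 24 h (adjusted p = 0.0619 to 0.144). The share of all genes that passed was 24.2% (12.5% rose, and 22.7% were higher in every library). Parp14 fell short of the threshold, at 48.5, 25.5 and 32.2 CPM at 24 h, all below the 6 h libraries as for 22.2% of all genes (log2 fold change -1.12, SE 0.43, edgeR adjusted p = 0.0658), and was called by DESeq2 (adjusted p = 0.0338), which called 28.2% of all genes. Parp12 was lower in every library as well, with 34.7, 24.5 and 32.9 CPM at 24 h (log2 fold change -0.59, SE 0.25, adjusted p = 0.0922). The GM and CTRL libraries of 6 h also served in choosing the genes, so the changes over time in these 2 treatments are not independent of the choice.

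In CTRL, 4 of the 9 genes rose, Parp9, Parp11, Uba7 and Ube2l6, while 28.0% of all genes passed in either direction and 14.8% rose. Parp11 rose from 17.9, 18.3 and 18.0 CPM to 22.5, 26.8 and 23.8 CPM (log2 fold change 0.44, SE 0.12, edgeR adjusted p = 0.0116). Uba7 rose from 7.56, 6.62 and 6.15 CPM to 12.8, 10.8 and 19.5 CPM (1.08, SE 0.39, adjusted p = 0.0439). Ube2l6 rose from 4.91, 4.85 and 4.87 CPM to 6.33, 7.60 and 10.7 CPM (0.75, SE 0.26, adjusted p = 0.0335). The times did not overlap for these 3 genes (24.1% of all genes were higher in every library), whereas Parp9, at 34.5, 24.0 and 37.9 CPM at 24 h, overlapped its 6 h libraries (0.63, SE 0.22, adjusted p = 0.0354). Each of the 4 calls was lost when 1 or more single libraries were left out, that of Uba7 in 11 of 24 fits. Parp14 was the 1 gene with a negative value (log2 fold change -0.63, SE 0.44), and it turned to 0.17 without CTRL library 2 of 6 h, at 72.9 CPM. The summed Schwann cell markers were lower at 24 h than at 6 h in CTRL (333 to 593 CPM against 755 to 1964 CPM) and in GM (396 to 791 CPM against 938 to 2567 CPM). The summed neuronal markers were also lower in GM, at 21.9 to 60.5 CPM against 68.3 to 188 CPM, and overlapped in CTRL, at 23.6 to 111 CPM against 96.4 to 127 CPM. The part of either list in these changes was not tested.

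**Figure D4:**
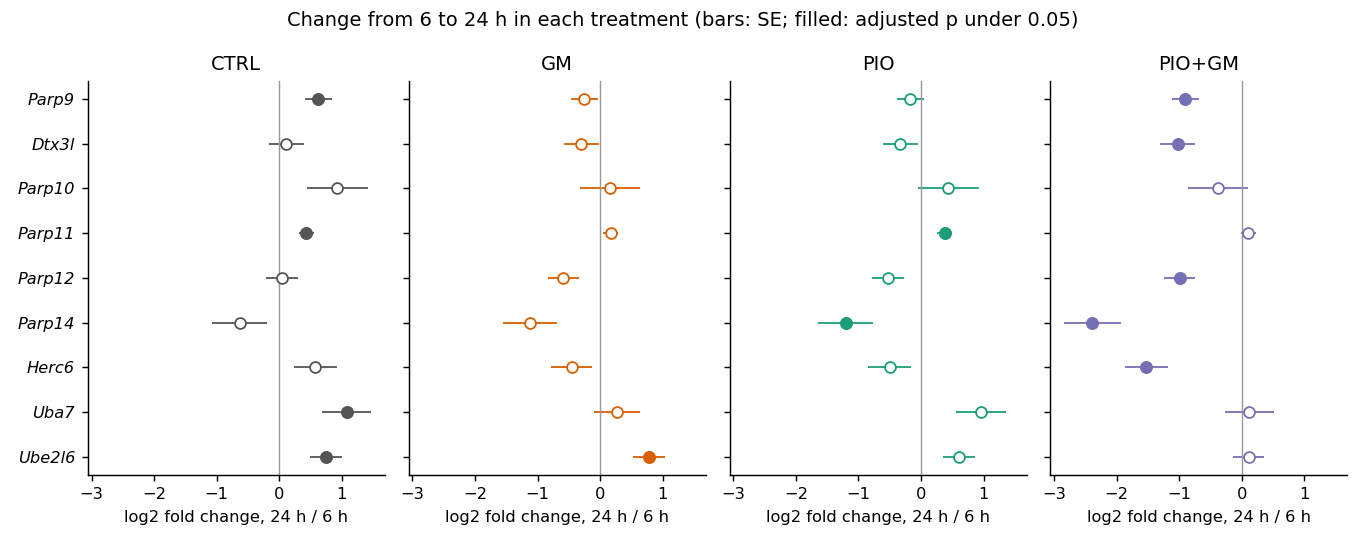
Log2 fold change from 6 to 24 h of each gene within CTRL, GM, PIO and PIO + GM, with bars of 1 SE. Filled points have an adjusted p under 0.05 by edgeR: 4 genes rose in CTRL, 1 in GM and 1 in PIO, while Parp14 fell in PIO and 5 genes fell in PIO + GM.

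Genes of the remaining pathway lists were also followed over time in culture, over which 24.2% to 34.6% of all genes passed. Zc3hav1 fell from 6 to 24 h in each treatment, by 1.03 in CTRL, 1.37 in GM and 1.14 in PIO on the log2 scale, and was the 1 gene of the 11 other PARP family genes to pass in those. Of the 6 genes that remove ADP-ribose, Macrod1, which takes the last ADP-ribose off a protein, rose with time in all 4 treatments, from 0.96 (SE 0.28) in CTRL to 2.03 (SE 0.30) in PIO + GM. Oard1 rose in CTRL and GM, Adprh rose in PIO + GM, and Parg fell in PIO. Dtx3, of the 4 other Deltex ligases, rose in all 4 treatments, by 1.07 in CTRL and 1.64 in PIO + GM, and Dtx1 rose in PIO + GM. Of the 3 ubiquitin enzymes that correspond to Uba7 and Ube2l6, Uba1 fell with time in CTRL and GM and Uba6 in PIO and PIO + GM. Jak1 fell in all 4 treatments, by 0.63 in CTRL and 0.65 in PIO + GM. Jak2 fell and Tyk2 rose in PIO as in PIO + GM, and Herc2 fell in GM and PIO as in PIO + GM. Of the 44 calls over time among the genes of these lists, 22 stood in all 24 fits without 1 library and 5 in fewer than 10 (Herc4 and Parg in PIO, and Parp8, Adprh and Jak2 in PIO + GM). In the treatment comparisons at 24 h, 0 of the 43 genes of the 6 lists passed the threshold by edgeR, with an unadjusted p under 0.05 in 12 of 215 cases (5.58%, where the share of all genes was 1.67% to 10.2% in the 5 comparisons). DESeq2 called 3 genes in PIO against GM, Isg15, Usp18 and Parp3, and 1.56% of all genes.

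Over the 8 groups, Parp9, Dtx3l, Parp14 and Herc6 were highest in PIO + GM at 6 h, with GM at 6 h next, and Parp12 had those groups in the opposite order (46.0 CPM in GM and 45.3 CPM in PIO + GM). The first place of PIO + GM rested on library 1: without it the means of Parp9, Dtx3l, Parp14 and Herc6 were 38.0, 42.0, 61.7 and 14.0 CPM, below the GM means of 41.8, 45.3, 76.7 and 14.2 CPM. Parp10, Uba7 and Ube2l6 were highest in GM at 24 h (10.8, 18.5 and 9.72 CPM), and Parp11 in PIO at 24 h (24.9 CPM). In the order of the 8 group means, neighbouring groups overlapped for every gene, with 1 exception: the lowest pair of Parp11, PIO and CTRL at 6 h, at 19.1 and 18.0 CPM.

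Libraries of the same group also differed together in these genes. After the group mean was taken from each value, the median Pearson r over the 36 pairs of genes was 0.65 (24 libraries, from 0.17 for Parp9 with Parp11 to 0.93 for Parp9 with Dtx3l), and 23 pairs had an r over 0.5. All genes were read from the same libraries, so the points share depth and RNA quality, and Parp9 and Dtx3l may share reads. The log2 ratio of Parp9 to Dtx3l had an SD of 0.19 over the 24 libraries, from -0.54 to 0.15. Parp11 and Ube2l6 followed the others least, with an r of 0.37 and 0.51 between their deviations and the mean of the other 8 genes, where the other 7 had an r from 0.75 to 0.88. The spread within groups was also uneven. The biological coefficient of variation was 0.106 for Parp11, lower than that of all but 6.93% of genes, and 0.402 for Parp10, with 91.2% of genes below it.

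**Figure D5:**
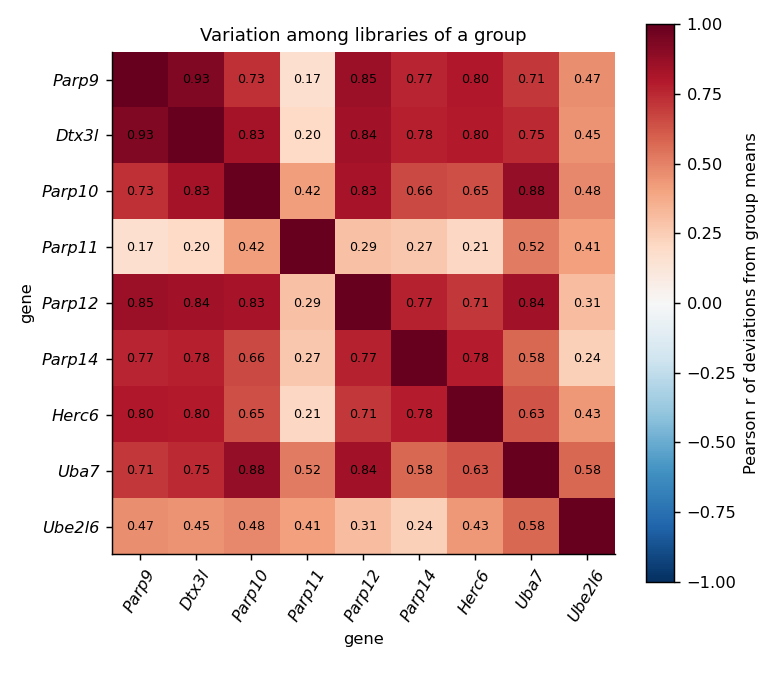
Pearson r between the 9 genes of the deviations of log2 CPM from the group means, over 24 libraries. Red is positive. Parp9 and Dtx3l have the highest r (0.93), and the row of Parp11 has the lowest, from 0.17 with Parp9 to 0.52 with Uba7.

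Among the other genes tested, those most like the mean standardized level of the 9 over all 24 libraries were Ddx58 (r = 0.95), which encodes the RNA sensor RIG-I, Irgm2 (0.95), an interferon-induced GTPase, Gbp7 (0.93), a guanylate-binding protein, Ddx60 (0.92), a helicase, and Oas1g (0.91), an oligoadenylate synthetase. With group means removed, they were Ddx58 (0.96), Irf7 (0.95), a transcription factor that drives interferon genes, Ifitm3 (0.93) and Bst2 (0.92), which restrict viruses, and Irgm2 (0.92).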

How the data were processed

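RNA from 24 libraries of organ of Corti explants was sequenced after stranded library preparation. The authors mapped reads with STAR and counted, with QuasR (qCount), those whose first base fell in a RefSeq exon of each gene. The deposited table holds these raw counts, without normalization, and a gene length in base pairs. The submitters' notes name the mm10 build. Whether counting used the strand, and how multiply mapped reads were handled, is not given in the sources used here.

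Entrez identifiers were matched to symbols for 24374 of 24454 genes, and 80 were left without one. Members and gene lists were chosen with earlier results of these data known. Named are all members, list genes past the threshold, Isg15, Usp18, Stat2, Irf7 and Irf9, and the 5 genes most correlated with the members' mean, with and without group means removed. The results of 1 gene that met this rule are not reported here.

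The quasi-likelihood F-test of edgeR 4.0.16 (R 4.3.3) was fitted to all 24 libraries with 1 mean per group, after filterByExpr and TMM, with Benjamini-Hochberg adjustment over 16317 genes and a threshold of 0.05. SE were derived from the F statistic. Treatments were compared within a time, times within a treatment, and treatment effects between times. CPM use TMM-scaled totals, log2 CPM a prior count of 2. DESeq2 1.42.0 and Python 3.11 (pandas 2.3.3, numpy 2.4.6, matplotlib 3.10.9) were also used. Alternatives were DESeq2, RLE size factors, totals without TMM, no filter, a minimum of 10 counts, fits of 1 time point, a replicate block, a receptor-share covariate, a prior count of 0.5 and leaving out each library. Library totals of 7211357 to 15548856 counts set the precision, for counting error only. In simulated data for GM against CTRL at 24 h on 15954 genes, the procedure called 100 of 100 genes changed by a log2 of 2, 41 of 100 changed by 1, and 7 of 15754 unchanged. Genes were drawn independently, all with a biological coefficient of variation of 0.225, and only genes with a mean above 2 CPM were changed. Parp10 (0.402), Parp14 (0.364) and Uba7 (0.321) varied more, so these rates do not carry over to them.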

Additional observations from a re-analysis of the deposited data

How the results depend on the processing

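The number of the 9 genes past the threshold depended on the settings where the base count was small. DESeq2 gave 5 in PIO + GM against CTRL at 6 h (2 by edgeR), 2 in PIO against GM at 6 h (0), 2 in GM (1) and 3 in PIO (2) from 6 to 24 h. A fit of the libraries of 1 time point gave 0 in PIO + GM against CTRL at 6 h, where it called 0.0127% of all genes, and 1 in PIO against GM at 24 h (Parp14), where it called 1.21%. Without a filter on low counts the count was 1 from 6 to 24 h in CTRL (4) and 1 in PIO (2), with 16.2% and 18.3% of all genes, and with the receptor share as a covariate, with or without the replicate block, it was 0 in PIO from 6 to 24 h, with 14.2% and 15.1% of all genes. In PIO + GM from 6 to 24 h every alternative run and every fit without 1 library called 5 genes, with Uba7 in place of Dtx3l without PIO + GM library 1 of 6 h. Leaving out 1 library gave counts from 0 to 3 for PIO + GM against CTRL at 6 h, 0 to 2 for PIO against GM at 6 h, 0 to 1 for PIO + GM against GM at 6 h, 1 to 4 for CTRL, 0 to 2 for GM and 0 to 3 for PIO from 6 to 24 h. It gave 0 in every other comparison.

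Over all genes, the alternatives other than leaving out a library called from 0 to 1990 against 216 for PIO + GM with GM at 6 h, from 2 to 1543 against 431 for PIO + GM with CTRL at 6 h, from 0 to 383 against 55 for PIO with CTRL at 6 h, from 1 to 331 against 21 for PIO with GM at 6 h, from 16 to 241 against 25 for PIO with CTRL at 24 h, from 13 to 102 against 18 for PIO + GM with GM at 24 h, from 44 to 290 against 74 for PIO with GM at 24 h, from 45 to 370 against 78 for PIO + GM with CTRL at 24 h, from 0 to 15 against 2 for GM with CTRL at 24 h and from 2322 to 5374 against 4731 for PIO from 6 to 24 h. Without 1 library the first of these ran from 4 to 4053 and the second from 31 to 3567. At 6 h PIO ran from 6 to 257 with CTRL and from 10 to 192 with GM. At 24 h PIO ran from 2 to 51 with CTRL and from 13 to 100 with GM. PIO + GM at 24 h ran from 1 to 26 with GM and from 15 to 110 with CTRL, and GM with CTRL from 1 to 5. From 6 to 24 h, CTRL ran from 2665 to 5199, GM from 2164 to 4706, PIO from 2702 to 6055 and PIO + GM from 3453 to 6450. The causes were not tested.

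The replicate numbers did not meet the rule for pairing at 6 h, so the main fit had no term for them. Same-numbered libraries correlated over 0.1 in their deviations in 9 of 18 pairs at 6 h and 15 of 18 at 24 h. Their mean r was 0.113 at 6 h and 0.38 at 24 h, against -0.055 and -0.182 for libraries of other numbers. Of the 24 libraries, 16 correlated best with their own number. The main fit thus leaves out a spread shared by number, above all at 24 h. With the replicate block, 0 of the 9 genes passed in the treatment comparisons at 24 h. The replicate block gave 3 genes in PIO + GM against CTRL at 6 h (with Parp12), 2 in PIO against GM at 6 h (Parp9 and Uba7) and 3 in PIO from 6 to 24 h (with Uba7), where it called 9.46%, 2.03% and 30.8% of all genes.

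Of the 153 pairs of gene and comparison, 39 changed sign in 1 fit or more, and 0 of these had been called. The largest was Parp10 in PIO + GM against CTRL at 6 h, at 0.82. Without 1 library, Ube2l6 in GM against CTRL at 6 h ranged from -0.12 to 0.37 and Uba7 in PIO + GM from 6 to 24 h from -0.19 to 0.92. A prior count of 0.5 moved 71 of 72 group levels by less than the SD between libraries. By the mean over all 24 libraries, 7 of the 9 genes had another rank by CPM, which ignores length, than by RPKM. With 3 libraries a group, the simulated data show that changes of 1 on the log2 scale were often missed.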
